A study of Rattus norvegicus with 16 samples.

Results

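The genes described here are 7 transcription factors of the circadian clock and its output: Bhlhe40, Bhlhe41, Hlf, Tef, Dbp, Nr1d1 and Nr1d2. They were taken as every probe set whose only gene symbol is one of these names, which gave 11 of the 8799 probe sets on the array and 7 of the 4737 genes with a probe set of 1 symbol. The series compares gene expression in rat muscle on 16 single-colour oligonucleotide arrays. The groups are EOM (extraocular muscle, which moves the eye, 4 arrays, each with a number of its own), TA_6h (a skeletal muscle that the labels call TA, collected at 6 hours, 8 arrays of 4 numbered samples) and TA_1h (TA collected at 1 hour, 4 arrays of 2 numbered samples). What the hours are counted from is not stated in the labels, which also name no collection time for EOM and no time of day. Strain, sex and age are not stated in the labels for any group, and the letters they spell as TA were kept as they stand.

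In the mammalian clock the activator pair CLOCK and BMAL1 binds E boxes, short DNA elements, and switches on its own repressors of the period and cryptochrome families, so that transcription rises and falls over the day. Nr1d1 and Nr1d2 (REV-ERB alpha and beta) are haem-binding nuclear receptors that repress Bmal1 and so form a second loop, while Bhlhe40 and Bhlhe41 (DEC1 and DEC2) are basic helix-loop-helix repressors that bind E boxes themselves. Dbp, Tef and Hlf are the PAR bZIP factors, which carry the rhythm to output genes through D box elements. Skeletal muscle has such a clock, and it is known for timing the use of glucose and lipid.

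The promoter windows below are shown because 4 of them hold an E box, the element through which the core pair acts and which the DEC repressors bind. RefSeq promoter windows of the GRCr8 build (250 bases before to 50 bases after a start) were matched for 6 of the 7 genes, with 2 starts for Nr1d1. Hlf was not matched. Each line runs 5′ to 3′ on the gene's strand, and capitals mark the E box. The Bhlhe40 window is chr4:143174200-143174499 on the plus strand, that of Bhlhe41 is chr4:180569306-180569605 on the minus strand, that of Tef is chr7:115206577-115206876 on the plus strand and the window of the second Nr1d1 start is chr10:84229405-84229704 on the minus strand. The windows of Tef and of the second Nr1d1 start lie inside the annotated genes.
Bhlhe40: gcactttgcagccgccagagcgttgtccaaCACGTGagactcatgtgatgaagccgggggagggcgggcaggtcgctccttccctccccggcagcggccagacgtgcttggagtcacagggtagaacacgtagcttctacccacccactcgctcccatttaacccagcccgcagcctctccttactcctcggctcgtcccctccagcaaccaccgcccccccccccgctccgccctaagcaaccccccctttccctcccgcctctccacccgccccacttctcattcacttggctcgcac
Bhlhe41: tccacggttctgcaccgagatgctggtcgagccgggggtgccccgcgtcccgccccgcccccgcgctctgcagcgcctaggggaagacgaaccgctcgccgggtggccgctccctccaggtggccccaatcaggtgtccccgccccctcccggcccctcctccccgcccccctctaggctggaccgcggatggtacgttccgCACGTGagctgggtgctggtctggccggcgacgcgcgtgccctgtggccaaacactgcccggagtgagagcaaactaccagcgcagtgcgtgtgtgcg
Tef: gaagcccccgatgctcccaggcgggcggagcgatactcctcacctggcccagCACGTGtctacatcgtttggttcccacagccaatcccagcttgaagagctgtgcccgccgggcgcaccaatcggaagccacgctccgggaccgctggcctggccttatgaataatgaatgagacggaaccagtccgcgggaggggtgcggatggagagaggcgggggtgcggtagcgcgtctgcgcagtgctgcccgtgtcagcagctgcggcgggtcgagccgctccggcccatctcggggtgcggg
Nr1d1, second start: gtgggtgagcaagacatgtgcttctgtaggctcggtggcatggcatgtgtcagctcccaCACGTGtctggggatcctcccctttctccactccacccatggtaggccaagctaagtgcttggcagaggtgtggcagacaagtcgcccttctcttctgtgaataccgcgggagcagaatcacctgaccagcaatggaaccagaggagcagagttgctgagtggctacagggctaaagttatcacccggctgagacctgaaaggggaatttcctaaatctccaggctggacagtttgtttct

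The E box searched for was CACGTG, which reads the same on both strands. Its first base lay 220 bases before the start in Bhlhe40, 48 in Bhlhe41, 198 in Tef and 191 before the second start of Nr1d1. Of the 33469 promoter windows of this table, 2148 (6.42%) hold it. The D box was searched for as TTATGTAA, TTACGTAA or TTATGCAA on both strands, and none of these letter runs contains the E box. It was in none of the 7 member windows and in 1.85% of all windows. The nuclear receptor core AGGTCA, on either strand, was in 16.2% of all windows and in 1 member window, that of Nr1d2, 187 bases before the start. These matches describe letters in a window of 300 bases and show no binding.

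On the same build Bhlhe40 lies on chromosome 4 from 143174450 to 143180150 and Bhlhe41 on the same chromosome from 180565003 to 180569415. Tef lies on chromosome 7 from 115197180 to 115221930, Dbp on chromosome 1 from 105312256 to 105317205 and Nr1d2 on chromosome 15 from 9955034 to 9981329. Hlf (75651320 to 75708979) and Nr1d1 (84224599 to 84231812) both lie on chromosome 10. The 3′ end of Nr1d1 overlaps that of Thra, the gene of thyroid hormone receptor alpha, by 1061 bases. Whether the Nr1d1 probes lie in this overlap was not checked. The brightest Thra probe set was not called between EOM and TA_6h (log2 difference 0.30 ± 0.19, limma SE, adjusted p = 0.213). Its other 2 probe sets had lower values in EOM, by -0.94 ± 0.35 at the threshold (limma adjusted p = 0.05) and by -0.43 ± 0.34 (0.324).

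Values are deposited intensities on a linear scale. A floor of 56.5, the 25th percentile of all intensities, was used for log2 values, and "at the floor" means at or under it. The value of a numbered sample is the mean of its arrays, and errors of group means are SDs over numbered samples. Differences are between means of floored log2 values from 1 limma fit over 7640 probe sets, with limma standard errors, and "called" means a Benjamini-Hochberg adjusted p under 0.05 in that fit. Folds are on the same floored log2 scale. In the EOM columns 24.3% of the intensities lie below 0 and in the TA columns none does, so in each difference between EOM and TA the muscle and the way the values were summarised cannot be told apart. Between 66.3 and 67.3% of the probe sets were above the floor on an EOM array, 75.4 to 80.6% on a TA_6h array and 74.7 to 81.1% on a TA_1h array.

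The TA arrays differed in a measure of RNA quality. On 5 of them, TA_6h 3a, 3b, 4a and 4b and TA_1h 2b, the middle over 3′ ratio of the beta-actin control was 0.146 to 0.390, against 0.891 to 0.978 on the EOM arrays and 0.815 to 1.28 on the other 7 TA arrays. All arrays of TA_6h samples 3 and 4 are among the 5. Differences without these arrays are given beside the genes whose values they move, and with only these arrays as TA the TA_1h group is the single array 2b. A Gapdh control split the other 7 TA arrays. Its middle value was 856 to 2184 (TA_6h 2b and 1b, TA_1h 1a and 2a), against 9700 (TA_6h 2), 19479 (TA_1h 1b) and 19527 (TA_6h 1). The EOM arrays gave 10659 to 14811, and the 5 arrays of low beta-actin ratio 6698 to 51038. The part of this split in the differences was not tested. Of 12 skeletal muscle fibre markers, all were tested and none was at the floor on every array of a group, and their summed intensity was 125760 to 153520 on EOM arrays, 118530 to 275080 on TA_6h arrays and 131970 to 314340 on TA_1h arrays.

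Called genes are summarised first. In EOM, 5 of the 7 genes were called against TA_6h, 1 higher (Bhlhe41) and 4 lower (Bhlhe40, Hlf, Tef and Nr1d1). Of all 4317 genes tested, 48.2% were called in this comparison, 22.1% higher and 26.1% lower. Against TA_1h, 3 of the 7 were called, Bhlhe41 higher and Bhlhe40 and Hlf lower, where 37.7% of all genes were called, 18.0% higher and 19.7% lower. The median log2 difference of the 7 genes was -0.59 against TA_6h and 0.04 against TA_1h, and over all genes it was -0.10 and -0.09. The 2 comparisons share the EOM arrays. Each gene stands here by its brightest probe set.

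**Figure D1:**
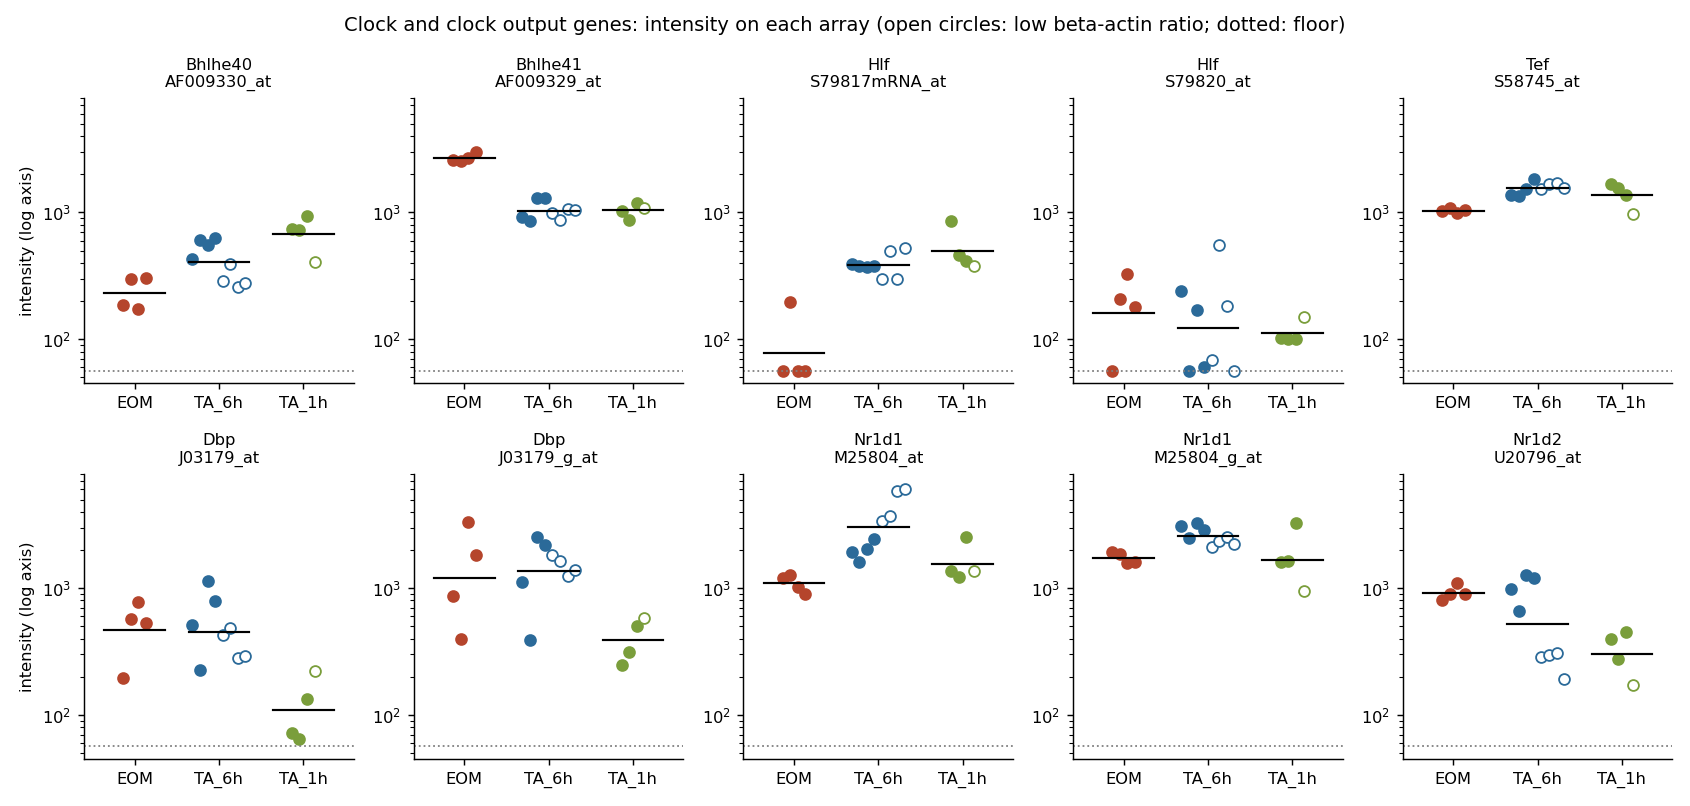
Deposited intensity (log axis) of the 10 probe sets of the 7 genes that pass the filter on dim values, on each EOM, TA_6h and TA_1h array. Circles are arrays, open where the beta-actin ratio was low, black bars are means on the floored log2 scale, and the dotted line is the floor, to which lower values are raised. The 4 EOM arrays of Bhlhe41 lie at 2566 to 2983, above all TA arrays, and those of Tef and of both Nr1d1 probe sets lie below all TA_6h arrays.

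Bhlhe41, the repressor DEC2, was higher in EOM than in both TA groups, with no overlap between arrays. The 4 EOM arrays gave 2578, 2566, 2666 and 2983. The TA_6h samples gave 886, 1297, 933 and 1049, and the TA_1h samples 954 and 1135. No TA array reached the EOM range, since the highest was 1298. The mean was 2698 ± 195 in EOM (SD, n = 4), 1041 ± 184 in TA_6h (SD, n = 4) and 1044 ± 128 in TA_1h (SD, n = 2). Bhlhe41 was 2.62-fold higher in EOM than in TA_6h (log2 difference 1.39 ± 0.17, limma adjusted p = 0.000113) and 2.59-fold higher than in TA_1h (1.38 ± 0.21, limma adjusted p = 0.000629). It was called under all 28 alternatives in both comparisons, with log2 differences of 1.19 to 1.50 against TA_6h and 1.18 to 1.50 against TA_1h. Pairs of arrays of 1 numbered sample differed by 1.00- to 1.18-fold, the narrowest spread of the tested probe sets described here. All the alternatives start from the same deposited values, so they do not separate the muscle from the way the values were summarised. These are bulk samples, in which more cells of a type and more RNA per cell cannot be told apart either.

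Bhlhe40, the paralogue DEC1, was lower in EOM than in both TA groups, with a difference from TA_6h close to the threshold. The EOM arrays gave 186, 300, 175 and 301. The TA_6h samples gave 518, 591, 339 and 268, and the TA_1h samples 733 and 675. The EOM arrays lay below all 4 TA_1h arrays, of which the lowest was 406, and overlapped with the arrays of TA_6h samples 3 and 4. Bhlhe40 averaged 241 ± 69.6 in EOM and 429 ± 151 in TA_6h (SD, n = 4 each), a 1.74-fold lower level in EOM (log2 difference -0.80 ± 0.30, limma adjusted p = 0.0484). Against TA_1h, at 704 ± 41.0 (SD, n = 2), it was 2.89-fold lower (-1.53 ± 0.36, limma adjusted p = 0.0083). Without the 5 arrays of low beta-actin ratio the difference from TA_6h was larger (-1.24, limma adjusted p = 0.0109), and with only those arrays as TA it was not called (-0.36, limma adjusted p = 0.363). The call against TA_6h held under 15 of 28 alternatives. It was lost without EOM sample 1 (limma adjusted p = 0.118) or 3 (0.125), without TA_6h sample 1 (0.111), 2 (0.121) or 3 (0.0567), without either TA_1h sample (0.0646 each) and with the sample number as a replicate block (0.0593). Against TA_1h it was lost without TA_1h sample 1 (-1.41, limma adjusted p = 0.0692) and with only the low-ratio arrays as TA (-0.80, limma adjusted p = 0.168).

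Among the PAR bZIP factors, Hlf, named for its fusion in human leukaemia, was lower in EOM than in both TA groups through 1 of its 3 probe sets (S79817mRNA_at). The EOM arrays of that probe set gave -58.6, 197, -69.3 and -120. The TA_6h samples gave 386, 376, 397 and 413, and the TA_1h samples 655 and 395. EOM 2 was the only EOM array above the floor, and it still lay below the lowest TA array, at 299.8. The log2 difference was -2.32 ± 0.39 against TA_6h (5.0-fold, limma adjusted p = 0.000887) and -2.69 ± 0.48 against TA_1h (6.43-fold, limma adjusted p = 0.00175). With 3 of 4 EOM arrays at the floor, both are lower limits of the size in the deposited values, not of the difference in RNA. The value moved with the floor, from -3.83 with the floor at the 10th percentile to -1.38 at the 40th against TA_6h, and from -4.20 to -1.75 against TA_1h. The call held under all 27 alternatives against TA_6h and under 26 of 27 against TA_1h, where it was lost with only the low-ratio arrays as TA (-2.30, limma adjusted p = 0.0651).

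Of the other 2 Hlf probe sets, 1 did not show this difference and 1 was too dim to be tested. S79820_at gave -185, 207, 326 and 179 on the EOM arrays, with sample values of 143, 115, 309 and 117 in TA_6h and of 102 and 126 in TA_1h. The groups overlapped, and neither EOM comparison was called (0.39 ± 0.47, limma adjusted p = 0.518, and 0.53 ± 0.58, limma adjusted p = 0.513). Without EOM sample 1 the difference from TA_6h was called (0.89, limma adjusted p = 0.0396). Arrays of 1 numbered sample differed by up to 8.07-fold in it on the floored scale. S79820_g_at was at the floor on all 16 arrays, between -47.8 and 38.1, and was not tested. The direction for Hlf therefore rests on a single probe set.

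Tef, thyrotroph embryonic factor, was lower in EOM than in TA_6h by a small and even amount. The EOM arrays gave 1022, 1080, 985 and 1040. The TA_6h samples gave 1365, 1689, 1601 and 1635, and the TA_1h samples 1616 and 1172. All EOM arrays lay below all TA_6h arrays, while TA_1h 2b, at 979, lay below them all. The mean was 1032 ± 39.6 in EOM and 1573 ± 143 in TA_6h (SD, n = 4 each), a 1.52-fold lower level in EOM (log2 difference -0.60 ± 0.16, limma adjusted p = 0.0108), and this was called under all 28 alternatives (-0.82 to -0.49). The mean in TA_1h was 1394 ± 315 (SD, n = 2), and the difference from TA_1h was not called (-0.41 ± 0.19, limma adjusted p = 0.128). It was called under 4 of 28 alternatives, among them quantile normalization (-0.65, limma adjusted p = 0.0199) and leaving out array TA_1h 2b (-0.53, 0.0349). The latter was added after the data were seen. The log2 difference ran from -0.65 to 0.08 over the alternatives.

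Dbp, the D site binding protein, had its lowest group mean in TA_1h in both of its probe sets. The dimmer probe set (J03179_at) gave 196, 573, 781 and 530 on the EOM arrays. It gave 366, 964, 456 and 288 in the TA_6h samples and 68.1 and 179 in the TA_1h samples. All 8 TA_6h arrays lay above all 4 TA_1h arrays, although by little, since the lowest TA_6h array was at 225 and the highest TA_1h array, 2b, at 223. In EOM this probe set was 4.28-fold higher than in TA_1h (log2 difference 2.10 ± 0.63, limma adjusted p = 0.0252), with EOM 1 inside the TA_1h range, and it did not differ detectably from TA_6h (0.04 ± 0.51, limma adjusted p = 0.96). The call against TA_1h was lost without EOM sample 3 (1.85, limma adjusted p = 0.0556) or 4 (2.03, 0.051), without TA_1h sample 1 (1.42, 0.229), without the filter on dim probe sets (0.0519) and with only the low-ratio arrays as TA (1.06, 0.343). Without TA_1h sample 2 the difference was 2.77.

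The brighter Dbp probe set (J03179_g_at) gave 867, 398, 3324 and 1834 on the EOM arrays, the widest EOM spread of the brightest probe sets described here that lie above the floor. Its TA_6h samples gave 758, 2363, 1736 and 1315, and its TA_1h samples 280 and 541. EOM and TA_6h each overlapped with TA_1h, by EOM 2 and by array TA_6h 1b, at 389. Neither EOM comparison was called (-0.19 ± 0.63, limma adjusted p = 0.823 against TA_6h, and 1.64 ± 0.78, limma adjusted p = 0.127 against TA_1h). Without EOM sample 2 the difference from TA_1h was called (2.17, limma adjusted p = 0.0288).

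Of the REV-ERB receptors, Nr1d1 was lower in EOM than in TA_6h through both of its probe sets, by unequal amounts. The brighter probe set (M25804_g_at) gave 1916, 1844, 1572 and 1606 on the EOM arrays. Its TA_6h samples gave 2795, 3066, 2244 and 2386, and its TA_1h samples 1610 and 2105. All EOM arrays were below all TA_6h arrays and inside the TA_1h range of 941 to 3269. The mean was 1734 ± 171 in EOM and 2623 ± 377 in TA_6h (SD, n = 4 each), with a log2 difference of -0.59 ± 0.16 (1.50-fold lower in EOM, limma adjusted p = 0.0132). The call was lost in 4 of 28 alternatives. These were leaving out the 5 arrays of low beta-actin ratio (-0.76, limma adjusted p = 0.0593), leaving out array TA_1h 2b alone (0.0553), taking each array as its own sample (0.058) and doing so with the numbered sample as a random block (0.106). The difference from TA_1h was not called (0.04 ± 0.20, limma adjusted p = 0.897). With only the low-ratio arrays as TA it was called higher in EOM (0.88, limma adjusted p = 0.00951), against array 2b alone, the lowest of the TA_1h arrays at 941.

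The dimmer Nr1d1 probe set (M25804_at) gave 1200, 1281, 1021 and 902 on the EOM arrays and 1778, 2236, 3549 and 5943 in the TA_6h samples. Its TA_1h samples gave 1295 and 1948. The 4 TA_6h arrays of low beta-actin ratio held the highest values, 3375, 3724, 5858 and 6028, against 1611 to 2449 on the other 4. The log2 difference between EOM and TA_6h was -1.47 ± 0.35 (2.77-fold lower in EOM, limma adjusted p = 0.00663), called under all 28 alternatives. It was -0.86 without the 5 arrays (limma adjusted p = 0.0464) and -2.07 with only those as TA. Between EOM and TA_1h this probe set was not called (-0.51 ± 0.43, limma adjusted p = 0.386). The part of RNA quality in the values of TA_6h samples 3 and 4 was not tested beyond these fits.

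Nr1d2, the second REV-ERB receptor, divided the TA_6h samples. The EOM arrays gave 808, 899, 1103 and 900. The TA_6h samples gave 822, 1236, 294 and 251, and the TA_1h samples 339 and 311. TA_6h samples 1 and 2 were near the EOM values, while samples 3 and 4, those of low beta-actin ratio, were near those of TA_1h. The mean was 927 ± 125 in EOM and 651 ± 469 in TA_6h (SD, n = 4 each), and the difference was not called (0.83 ± 0.47, limma adjusted p = 0.168). It was -0.11 without the 5 low-ratio arrays (limma adjusted p = 0.711), 1.78 with only those as TA (limma adjusted p = 0.00068) and 1.25 without TA_6h sample 2 (limma adjusted p = 0.0262). Against TA_1h, at 325 ± 19.6 (SD, n = 2), all EOM arrays were above all TA_1h arrays, and the 3.03-fold difference missed the threshold (1.60 ± 0.57, limma adjusted p = 0.0511). It passed under 16 of 28 alternatives, among them leaving out TA_6h sample 2 (limma adjusted p = 0.0188), 3 (0.0462) or 4 (0.028) and leaving out the 5 arrays (1.25, limma adjusted p = 0.00408). It missed the threshold without each EOM sample in turn (0.0727 to 0.0964), without TA_1h sample 1 (0.146) or 2 (0.213) and without TA_6h sample 1 (limma adjusted p = 0.0533).

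**Figure D2:**
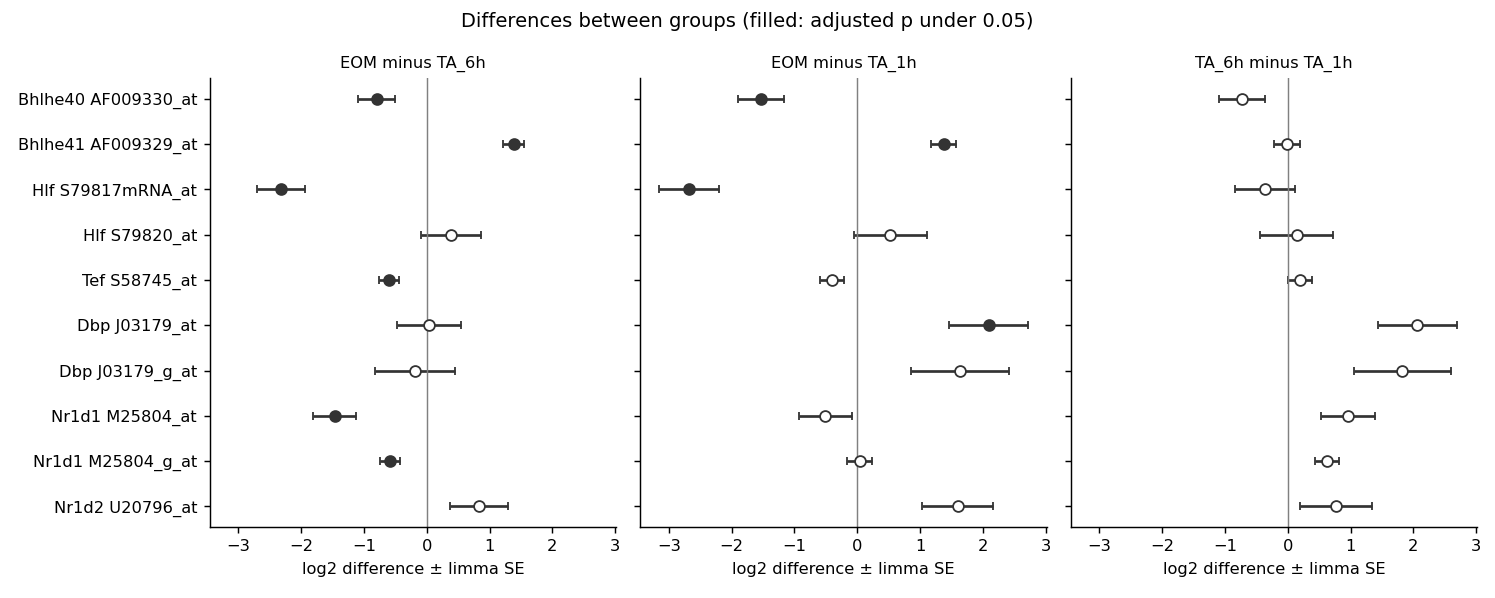
Log2 differences (points) with limma standard errors (bars) of the 10 tested probe sets for EOM minus TA_6h, EOM minus TA_1h and TA_6h minus TA_1h, with filled points where the adjusted p is under 0.05. Bhlhe41 lies at 1.39 and 1.38 and Hlf S79817mRNA_at at -2.32 and -2.69 in the EOM comparisons, and no point is filled between the TA groups.

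The comparison of the TA groups sets the collection hours side by side. Dbp, Nr1d1 and Nr1d2 are known as strongly rhythmic genes in mammalian tissues. None of the 7 genes was called by limma between TA_6h and TA_1h, and 0% of the 4317 genes tested were. At an unadjusted p under 0.05 the count was 2 of the 7 (Dbp and Nr1d1) and 250 of the 4317 (5.79%). The dimmer Dbp probe set differed by 2.06 ± 0.63 on the log2 scale (4.17-fold higher in TA_6h, limma adjusted p = 0.697), and the brighter one by 1.83 ± 0.78 (limma adjusted p = 0.885). Among the 7640 probe sets the size of these differences stood at percentiles 99.95 and 99.8, a rank that takes no account of spread. By brightest probe set the other genes stood at 94.2 (Nr1d2), 93.5 (Bhlhe40), 89.7 (Nr1d1), 70.5 (Hlf), 44.9 (Tef) and 3.64 (Bhlhe41). The dimmer Dbp difference was 1.39 without TA_1h sample 1 and 2.73 without sample 2 (limma adjusted p = 1 and 0.863), 2.56 without the low-ratio arrays (0.239) and 0.70 with only those (0.705). The brighter Nr1d1 probe set differed by 0.63 ± 0.20 (limma adjusted p = 0.706) and the dimmer by 0.96 ± 0.43 (0.885). Without the low-ratio arrays these differences were 0.35 (limma adjusted p = 0.775) and 0.14 (0.951).

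The remaining genes had smaller or more variable differences between the TA groups. Nr1d2 differed by 0.76 ± 0.57 (limma adjusted p = 0.999), or by 1.36 without the low-ratio arrays (0.104), and Bhlhe40 by -0.73 ± 0.36 (0.919). Hlf S79817mRNA_at differed by -0.36 ± 0.48, Tef by 0.20 ± 0.19 and Bhlhe41 by -0.01 ± 0.21 (limma adjusted p = 1 for each). The comparison rests on 4 samples against 2. With the low beta-actin ratio as a batch term and each array as its own sample, Nr1d2 was called (1.19, limma adjusted p = 0.0269) and the dimmer Dbp probe set was not (2.08, limma adjusted p = 0.0631). With only the low-ratio arrays, Tef (0.72, limma adjusted p = 0.0308) and the brighter Nr1d1 probe set (1.30, limma adjusted p = 0.0203) were called against array 2b alone, and the dimmer Nr1d1 probe set was at the threshold (limma adjusted p = 0.05).

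Of 24 other clock components listed, 8 had a probe set and 6 were tested. In EOM, 2 were called lower than in TA_6h (Gsk3b and Prkaa1) and 3 lower than in TA_1h (also Bmal1). Over all genes 26.1% and 19.7% were called lower in these comparisons. The median log2 difference of the 6 was -0.86 against TA_6h and -1.09 against TA_1h, where the medians of all genes were -0.10 and -0.09. Per2, a period repressor, gave 33.7, 213, 455 and 184 on the EOM arrays, and 7 of 8 TA_6h arrays, up to 276, were above the floor. All 4 TA_1h arrays of Per2 were at the floor, and no comparison was called (0.50 ± 0.59 against TA_6h, limma adjusted p = 0.508, and 1.66 ± 0.73 against TA_1h, limma adjusted p = 0.101). Between the TA groups Per2 differed by 1.16 ± 0.73 (limma adjusted p = 0.985). EOM 1 and TA_6h 4b were also at the floor in Per2, so these differences are not bounds. The EOM difference from TA_1h passed the threshold under some alternatives, among them the batch term (1.68, limma adjusted p = 0.0342) and leaving out EOM sample 1 (2.21, 0.0147). The batch-term fit did not average arrays that share a number.

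Bmal1, the activator that the REV-ERB receptors repress, was at the floor on all 4 EOM arrays in its brighter probe set. The TA_6h arrays of samples 1 and 2 gave 386, 1375, 284 and 205, those of samples 3 and 4 gave 33.3, 46.9, 64.4 and 71.6, and the TA_1h arrays gave 743, 871, 734 and 439. In the deposited values it was at least 11.96-fold lower in EOM than in TA_1h with the floor used here (log2 difference -3.58 ± 0.84, limma adjusted p = 0.00817). That value moved with the floor, from -5.59 at the 10th percentile to -2.33 at the 40th. The difference from TA_6h was not called (-1.51 ± 0.69, limma adjusted p = 0.097). This difference depended on the low-ratio arrays. It was called without them (-2.89, limma adjusted p = 0.00106) and without TA_6h sample 3 alone (-2.02, 0.0349). With the low ratio as a batch term it was called too (-2.63, limma adjusted p = 0.000202), in a fit where arrays sharing a number were left unaveraged. With only the low-ratio arrays as TA it was -0.13 (limma adjusted p = 0.341), and without TA_6h sample 1 it was -0.79 (0.18). Without TA_1h sample 1 the call against TA_1h was lost (-3.33, limma adjusted p = 0.0691). The other Bmal1 probe set was above the floor on 3 of 4 EOM arrays and was called in neither comparison (0.01 ± 0.50 and -1.23 ± 0.61). Between the TA groups the brighter probe set differed by -2.07 ± 0.84 (limma adjusted p = 0.885). It differed by -0.87 without the low-ratio arrays (limma adjusted p = 0.519), by -0.69 without TA_6h samples 3 and 4 (0.625) and by -2.83 with only the low-ratio arrays (0.00463), where TA_1h is array 2b alone.

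**Figure D3:**
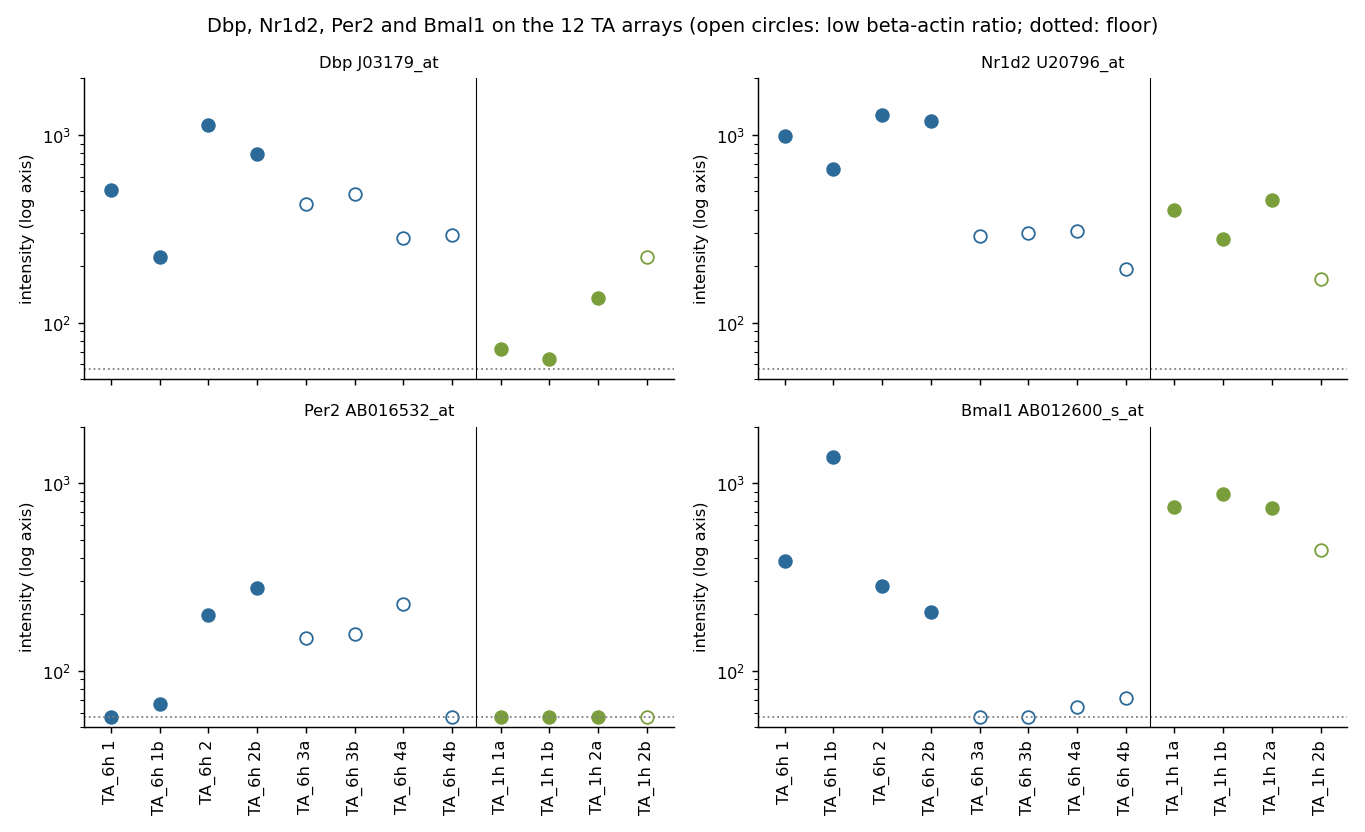
Deposited intensity (log axis) of the dimmer Dbp probe set, Nr1d2, Per2 and the brighter Bmal1 probe set on the 8 TA_6h and 4 TA_1h arrays, with open circles where the beta-actin ratio was low and the floor dotted. Dbp lies at 225 to 1134 in TA_6h and 64.3 to 223 in TA_1h, all Per2 values in TA_1h are at the floor, and Nr1d2 and Bmal1 divide TA_6h samples 1 and 2 from samples 3 and 4.

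The kinases on the list act on clock proteins and on much else. Gsk3b was lower in EOM through both probe sets, the brighter by -1.94 ± 0.40 against TA_6h (limma adjusted p = 0.00319) and by -2.09 ± 0.49 against TA_1h (0.00817). Without TA_1h sample 2 the call against TA_1h was lost (-1.76, limma adjusted p = 0.085). Prkaa1, a catalytic subunit of AMP-activated kinase, was lower by -1.08 ± 0.21 (limma adjusted p = 0.0023) and -1.32 ± 0.26 (0.00298). Of its arrays, 2 of 4 in EOM and 6 of 8 in TA_6h were above the floor. Each Prkaa1 call held under 25 of 27 alternatives. Both were lost with the floor at the 40th percentile (limma adjusted p = 0.138 and 0.28). Prkaa2, the other catalytic subunit (-0.64 ± 0.30, limma adjusted p = 0.111), and Csnk1d, which phosphorylates period proteins (-0.54 ± 0.20, limma adjusted p = 0.0504), were not called against TA_6h. Rorb and Timeless were not above the floor on enough arrays to be tested.

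Of 26 genes listed as clock-linked outputs of muscle and metabolism, 18 were tested. In EOM, 2 were called higher and 7 lower than in TA_6h, with a median log2 difference of -0.47, and 2 higher and 5 lower than in TA_1h (median -0.61). Of all genes 48.2% and 37.7% were called in these comparisons. Myod1, the myogenic factor that CLOCK and BMAL1 activate in mouse muscle, averaged 426 ± 101 in EOM and 1089 ± 331 in TA_6h (SD, n = 4 each), lower in EOM by 2.48-fold (-1.31 ± 0.25, limma adjusted p = 0.00178). Ucp3, a mitochondrial carrier, was lower by 3.43-fold (-1.78 ± 0.55, limma adjusted p = 0.0233). That call was lost with only the low-ratio arrays as TA (-1.08, limma adjusted p = 0.216) and without EOM sample 2 (0.0586) or 4 (0.0604) or TA_6h sample 1 (0.0593) or 2 (0.0552), and without the low-ratio arrays the difference was -2.48 (0.0133). Cebpa, an adipogenic factor, was lower by at least 2.35-fold in the deposited values, with all 4 EOM arrays at the floor (limma adjusted p = 0.00808). This call was lost with the floor at the 40th percentile (limma adjusted p = 0.202). Avp, vasopressin, was 2.81-fold higher (1.49 ± 0.20, limma adjusted p = 0.000252), and whether this signal is vasopressin RNA of muscle was not checked.

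Markers of nerve, macrophages and fibroblasts were mostly higher in EOM beside these genes, and those of adipocytes and of endothelium and smooth muscle were mixed. Of all genes 22.1% were called higher in this comparison. Of 7 tested nerve and Schwann cell markers 6 were called higher than in TA_6h, of 7 macrophage and leukocyte markers 6, of 10 fibroblast markers 7, of 8 adipocyte markers 4 with 2 lower, and of 10 endothelial and smooth muscle markers 4 with 2 lower. The nerve list summed to 10390 to 14414 on EOM arrays, 2352 to 3109 on TA_6h arrays and 2528 to 3229 on TA_1h arrays. The macrophage list summed to 18036 to 23155 in EOM, 6758 to 11299 in TA_6h and 6654 to 7919 in TA_1h, and the fibroblast list to 66157 to 85261 in EOM, 38675 to 72692 in TA_6h and 27373 to 38980 in TA_1h. The adipocyte list summed to 10854 to 13409 in EOM, 8318 to 9388 in TA_6h and 8757 to 9031 in TA_1h. The endothelial and smooth muscle list summed to 7016 to 9052 in EOM, 3803 to 15108 in TA_6h and 4714 to 8540 in TA_1h. Nefm, Lipe, Plin1, Vwf and Icam2 were at the floor on all EOM arrays. The part of other cell types in the differences of the clock genes was not tested.

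Across the 10 numbered samples the members fell into no single pattern. Pearson's r of floored log2 values was -0.91 between Bhlhe41 and Hlf, 0.84 between Hlf and Tef and 0.79 between Bhlhe40 and Hlf, against 0.20 between Dbp and Nr1d1 and 0.09 between Nr1d1 and Nr1d2. These values describe 10 samples of 3 groups, so any pair of genes that differs between EOM and TA correlates through the groups. The genes most like each member over the 10 samples were Car3, Prdx6 and Xpo7 for Bhlhe40 (r = 0.94 to 0.96), and Alb, Dio1 and Hic2 for Bhlhe41 (0.98 to 0.99). For Hlf they were Plcb2, Pdyn and Cacna1a (r = 0.98 each) and for Tef Cdk14, Erbb3 and RT1-N3 (0.97 to 0.98). For Dbp they were Rsad2, LOC102553824 and Pkp4 (r = 0.80 to 0.85), for Nr1d1 Pth2r, Pla1a and Hspa1a (0.90 to 0.92) and for Nr1d2 Stk38, Ywhab and Acot2 (0.93 to 0.96).

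**Figure D4:**
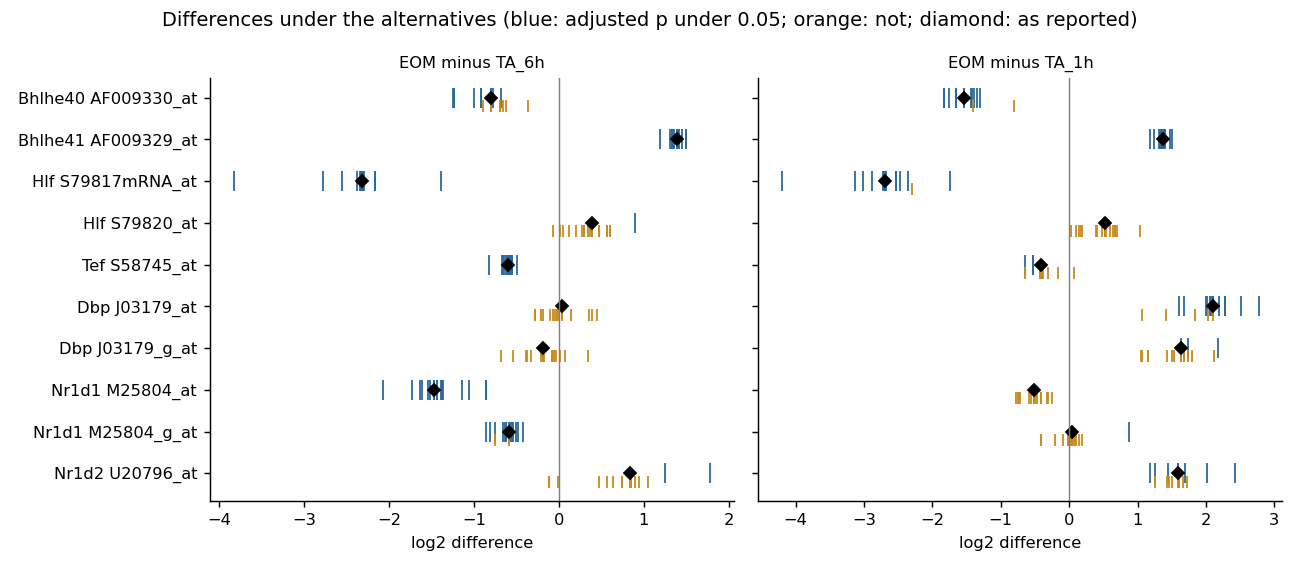
Log2 differences of the 10 tested probe sets under the alternatives that keep the log2 scale (ticks) and as reported (diamonds), for EOM minus TA_6h and EOM minus TA_1h, with blue ticks where the adjusted p is under 0.05 and lower orange ticks where it is not. Bhlhe41 stays between 1.18 and 1.50 in both panels, while Bhlhe40 against TA_6h runs from -1.25 to -0.36 with ticks of both colours.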

How the data were processed

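RNA of rat muscle was measured on 16 arrays, and the authors deposited a linear intensity for each of the 8799 probe sets on each array. The summary and scaling steps behind these values are not stated in the labels. Values were floored at the 25th percentile of all intensities (56.5) before log2 transformation. Within a group, arrays that share a number were averaged and counted as 1 sample, which for 2 TA_6h arrays without a letter, joined with 1b and 2b, is an inference. Whether the numbers stand for separate animals is not stated, so the spread behind the p-values is that between these samples and may be technical. The number of arrays limits the precision.

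Without the 59 controls, 7640 probe sets exceeded the floor on 4 or more arrays and entered 1 fit with limma 3.58.1 (lmFit, eBayes, R 4.3.3, two-sided, 7 residual and 2.83 prior degrees of freedom) over all 3 groups, with Benjamini-Hochberg adjustment over all of them. A gene is represented by its brightest probe set. Symbols come from GEO's platform annotation, where 7018 probe sets have 1 symbol, 308 several and 1473 none listed. Motifs were searched and figures drawn in Python 3.11.15 with matplotlib 3.10.9.

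Named genes are all 7 members, every listed clock component on the array, up to 4 called genes per other list with the largest difference between EOM and TA_6h, and the 3 genes most correlated with each member. The members and lists were chosen with earlier results of these data known. Lists of glucocorticoid- and hypoxia-responsive genes are given after the report. Deviations of same-numbered samples from their group means correlated at 0.02 to 0.11 between EOM and TA_6h, at 0.04 and -0.04 between EOM and TA_1h and at 0.39 and -0.42 between the TA groups, so the numbers were not taken to pair samples. Alternatives changed the floor, normalization, filter, replicates, block, variance model, low-ratio arrays, probe set and samples.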

Additional observations from a re-analysis of the deposited data

Results flagged for a closer look

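Of the groups of 4 samples, the Hlf probe set S79817mRNA_at in EOM had 1 sample far from the others. EOM 2 was at 7.62 on the log2 scale (intensity 197), while the other 3 EOM samples were at the floor, 5.82. Since values under the floor are raised to it, the gap equals the whole range of the group. The rule marks about 1 in 20 groups by chance where values are not tied. It marks every group with 3 of 4 samples at the floor and 1 above it, so that rate does not apply here. Without EOM 2 the log2 difference of Hlf was -2.77 against TA_6h (limma adjusted p = 1.02e-05) and -3.14 against TA_1h (limma adjusted p = 2.32e-05).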

How the results depend on the processing

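Of the 7 genes, 5 were called between EOM and TA_6h, 3 between EOM and TA_1h and, by limma, 0 between TA_6h and TA_1h, where 2 had an unadjusted p under 0.05. The count for EOM and TA_1h was 5 with each array as its own sample (Dbp and Nr1d2 gained) and 5 without the 5 low-ratio TA arrays (Tef and Nr1d2 gained). It was also 5 with the low beta-actin ratio as a batch term (Dbp and Nr1d2 gained), a fit that likewise takes each array as its own sample. Between the TA groups it was 1 with the batch term (Nr1d2) and 2 with only the low-ratio arrays (Tef and Nr1d1). The cause was not tested. Leaving out each numbered sample in turn gave 4 to 5, 2 to 4 and 0 to 0 genes for the 3 comparisons. With number as a replicate block, 4, 4 and 0 genes were called, with Bhlhe40 lost against TA_6h (limma adjusted p = 0.0593) and Nr1d2 gained against TA_1h (limma adjusted p = 0.0351). No member difference called in the reported fit changed sign under any alternative run. Some differences called only under an alternative did. That of the brighter Nr1d1 probe set between EOM and TA_1h ran from -0.41 to 0.88 over the alternatives. Over all probe sets, the fit between TA_6h and TA_1h called 0 (424 at an unadjusted p under 0.05), against 33 higher and 12 lower without the low-ratio arrays, 47 and 10 with the batch term and 377 and 304 with only those arrays, where TA_1h is 1 array. Between EOM and TA_6h it called 1671 higher and 1935 lower, against 1674 and 2792 with the floor at the 10th percentile and 1136 and 791 when a probe set had to exceed the floor on all 16 arrays. Leaving out TA_6h samples 3 and 4 together and leaving out array TA_1h 2b were alternatives chosen after seeing the data. TA_1h rests on 2 samples, and EOM values under the floor give only bounds, which hold for the deposited values.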

Other observations

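Glucocorticoids set the phase of peripheral clocks, and of 22 genes listed as responsive to them 12 were tested. In EOM, 5 were called higher and 5 lower than in TA_6h, and 4 higher and 4 lower than in TA_1h. Over all genes the shares called were 48.2% and 37.7% in these comparisons. Hsd11b1, which regenerates active glucocorticoid, averaged 7630 ± 471 in EOM and 561 ± 94.9 in TA_6h (SD, n = 4 each), a 13.8-fold higher level in EOM (log2 difference 3.79 ± 0.16, limma adjusted p = 2.06e-07). Nr3c1, the glucocorticoid receptor, was lower in EOM by -1.49 ± 0.55 (limma adjusted p = 0.0469), a call kept under 9 of 27 alternatives. Cebpb was lower by -2.04 ± 0.18 (limma adjusted p = 1.58e-05), and Odc1, of polyamine synthesis, by -4.71 ± 0.44 (limma adjusted p = 2.38e-05) with 1 of 4 EOM arrays above the floor.

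Bhlhe40 and Bhlhe41 are also known as hypoxia-responsive genes. Of 20 other genes listed as such, 12 were tested, and 4 were called higher and 1 lower in EOM than in TA_6h, and 5 higher than in TA_1h. Over all genes the shares called were 48.2% (22.1% higher) against TA_6h and 37.7% (18.0% higher) against TA_1h. Hif1a averaged 563 ± 97.6 in EOM and 190 ± 109 in TA_6h (SD, n = 4 each), higher in EOM by 1.74 ± 0.40 on the log2 scale (limma adjusted p = 0.00527). Egln3, an oxygen-sensing hydroxylase, was higher by 1.47 ± 0.27 (limma adjusted p = 0.00171) and Pdk1 by 0.95 ± 0.23 (0.00817). Pgk1, a glycolytic enzyme, was lower by -0.69 ± 0.20 (limma adjusted p = 0.0174).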
